A study of Mus musculus with 33 samples.

Results

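The carboxylesterases described here are 10 mouse genes: Ces1b, Ces1d, Ces1e, Ces1f, Ces1g, Ces2a, Ces2c, Ces2e and Ces3a of the carboxylesterase family, and Aadac, a separate arylacetamide deacetylase with overlapping substrates. They were taken by name, not by their values. On the Affymetrix Mouse Genome 430 2.0 array, which holds 45101 probe sets (groups of short probes against 1 transcript), 7 of the 10 had probe sets annotated to them alone, 9 in all. Ces3a was read only by a probe set shared with its neighbour Ces3b, and that probe set is given under both names. No probe set is named for Ces1b or Ces2c in the annotation used here, so neither has a value. All 9 probe sets and the shared one passed the filter on low values (log2 of at least 4 in at least 10 of 33 arrays) and did so in each diet; the lowest member value on any array was 8.99. The 7 genes are among 9005 that were tested.

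Livers came from male C57BL/6J mice aged 17 weeks, all fed the same research diet with added oil for 2 weeks and all fasted before sacrifice. The fenofibrate group (12 mice) received sunflower oil at 7% of energy with 0.03% fenofibrate by weight. The fish oil group (11 mice) received fish oil at 7% of energy, with 23.1% eicosapentaenoic acid (EPA) and 21.1% docosahexaenoic acid (DHA), and no sunflower oil. The control group (10 mice) received the sunflower oil alone, which is high in oleic acid, at the same 7% of energy, so fish oil against control compares 2 oils. Total RNA of each liver was read on 1 array, mice lived 2 to a cage, and which mice shared a cage is not given in the labels. Values are log2 expression, and 1 unit is a factor of 2; a level of 1 probe set was not compared with that of another, since probes differ in brightness.

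Carboxylesterases are serine hydrolases of the endoplasmic reticulum that split esters, amides and thioesters. In liver they clear ester drugs, and several also hydrolyse stored triacylglycerol or cholesteryl ester, which feeds lipid into very low density lipoprotein (VLDL). Fenofibrate itself is an ester prodrug: hydrolysis releases fenofibric acid, which activates the nuclear receptor PPAR alpha, while long-chain n-3 fatty acids of fish oil are natural ligands of that receptor. Most members end in a short signal that KDEL receptors read to return them to the endoplasmic reticulum. In the RefSeq gene order, Ces1a, Ces1b, Ces1c, Ces1d, Ces1e, Ces1f, Ces1g and Ces1h lie side by side on chromosome 8, and a second run there holds Ces2a, Ces2b, Ces2c, Ces2e, Ces2f, Ces2g, Ces2h, Ces3a, Ces3b and Ces4a. Aadac lies on chromosome 3. The neighbours are close relatives, so probes of 1 gene may bind transcripts of another, and differences between relatives are uncertain to that extent.

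Members of the same run did not all answer the diets alike. The 250 bases before the transcript start are printed for a pair from each run: Ces1e and Ces1g, and Ces2a and Ces2e. With all controls kept, Ces1e and Ces2e were higher than control on both diets. Ces1g and Ces2a were then higher than control on fish oil and lower on fenofibrate than on fish oil. Without control replicates 1, 2 and 9 the Ces2e rise on fenofibrate was not called (limma adjusted p = 0.116). Nor was the Ces1g rise on fish oil (adjusted p = 0.12). Sequences are from RefSeq for GRCm38.p6, read 5′ to 3′ on the gene's strand, and capitals mark the longest run of bases that the members of a pair share. The windows are chr8:93229620-93229869 on the minus strand for Ces1e, chr8:93337210-93337459 on the minus strand for Ces1g, chr8:104733753-104734002 on the plus strand for Ces2a and chr8:104926010-104926259 on the plus strand for Ces2e.
Ces1e: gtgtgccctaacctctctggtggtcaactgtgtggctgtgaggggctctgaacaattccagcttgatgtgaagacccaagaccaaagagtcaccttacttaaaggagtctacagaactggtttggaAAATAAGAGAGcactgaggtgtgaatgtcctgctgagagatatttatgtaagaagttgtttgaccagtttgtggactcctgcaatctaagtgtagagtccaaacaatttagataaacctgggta
Ces1g: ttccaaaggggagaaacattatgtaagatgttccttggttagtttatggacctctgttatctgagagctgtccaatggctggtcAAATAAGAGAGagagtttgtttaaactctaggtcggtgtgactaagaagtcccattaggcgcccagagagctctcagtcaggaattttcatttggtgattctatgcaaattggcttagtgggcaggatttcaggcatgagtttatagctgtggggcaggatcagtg
Ces2a: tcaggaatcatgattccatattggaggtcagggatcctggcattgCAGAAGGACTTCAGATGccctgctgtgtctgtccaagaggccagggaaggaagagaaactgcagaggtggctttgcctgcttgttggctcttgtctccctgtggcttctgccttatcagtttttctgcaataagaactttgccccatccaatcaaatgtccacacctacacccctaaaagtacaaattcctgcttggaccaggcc
Ces2e: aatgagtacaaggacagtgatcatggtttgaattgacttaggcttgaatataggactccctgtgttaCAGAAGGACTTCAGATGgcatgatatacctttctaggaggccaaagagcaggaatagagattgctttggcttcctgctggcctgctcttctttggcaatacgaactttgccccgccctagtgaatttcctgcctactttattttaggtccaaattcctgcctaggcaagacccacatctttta
Counting the base before the start as -1, Ces1e and Ces1g share a run of 11 bases that begins at -124 in Ces1e and at -166 in Ces1g. Ces2a and Ces2e share a run of 17 bases that begins at -205 in Ces2a and at -183 in Ces2e. In a global alignment the Ces1e and Ces1g windows were 50.5% identical, and the Ces2a and Ces2e windows 57.3%. Over the 21 pairs among the 7 members with an entry in the promoter table, identity ran between 45.4% and 67.0%, and the closest pair was Ces2a with Ces2c.

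In total 7 short motifs were looked for in the same windows of those 7 members. The core that nuclear receptors bind, AGGTCA on either strand, occurs in 1 of them, Ces2a, at -226, and in 14% of all 32851 promoter windows of the table. The letters CCAAT, searched on both strands, occur in Ces1b, Ces1g, Ces2a, Ces2c and Aadac and in 33.8% of all windows. Ces1b has a window at chr8:93079941-93080190 and another, for a different start, at chr8:93080018-93080267. Only the former holds a CCAAT match. In Ces2a a CCAAT match on the opposite strand begins at -231 and ends on the base before the AGGTCA match, with no overlap. No member's window holds AGGTCA repeated after a gap of 1 base (DR1, the spacing that PPAR alpha binds with RXR; 0.0335% of all windows) or after a gap of 4 bases (DR4; 0.0152%). None holds the antioxidant element core TGACNNNGC (10.2%) or the sterol element TCACCCCAC (0.496%) on either strand, or TATAAA on the gene's strand (7.59%). A match is letters in a window and not a binding site, and these data hold no measurement of binding.

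Before the results, 3 of the 10 control arrays have to be named. Control replicates 1, 2 and 9 correlated less with the other controls than the rest did. Over the 17162 probe sets past the filter, their median correlations were 0.973, 0.979 and 0.980, against 0.987 to 0.991 for the other 7. Replicates 1 and 2 were low for most members. Against the mean of the other 7 controls, Ces1d was lower by 1.01 in replicate 1 and 1.29 in replicate 2 on the log2 scale, and Ces1g by 1.72 and 0.60. Replicate 9 was lower by 0.91 for Ces2a and 0.47 for Ces1e but differed by only 0.02 for Ces1d. Ces3a and Ces3b (differences of -0.02, 0.16 and -0.24 in replicates 1, 2 and 9) and Aadac (-0.06, -0.13 and -0.16) were low in none of the 3 to that extent. The summed linear signal of the adipocyte markers was 699 and 841 in control replicates 1 and 2, against 271 to 489 in the other 7; it came almost wholly from Fabp4, since Adipoq and Lep were below the filter. Stellate cell markers summed to 4776 in replicate 2, against 4110 to 4486 in the other 7. Of the 4 stellate markers past the filter, only Col3a1 was above the other 7 there (9.437, against 7.666 to 8.4). Reln was below them (10.025, against a lowest of 10.043), and Lrat and Dcn lay inside their range. In replicate 9 endothelial (2286), acinar (306.5) and blood (327) marker sums were below those of the other 7 (lowest 2541, 618 and 476). The acinar and blood lists had 1 marker past the filter each, Cela1 and Alas2. The 3′ to 5′ contrast of the Gapdh and Actb probe sets in replicates 1 and 2 lay inside the range of the other controls, while the Actb contrast of replicate 9 was 1.06, below the 1.105 to 1.57 of the other 7. The part of these features in the members' values was not tested. Comparisons of members with control are therefore given with all 10 controls and again with 7, and for the other named genes the result with 7 is given where it ends a call.

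**Figure D1:**
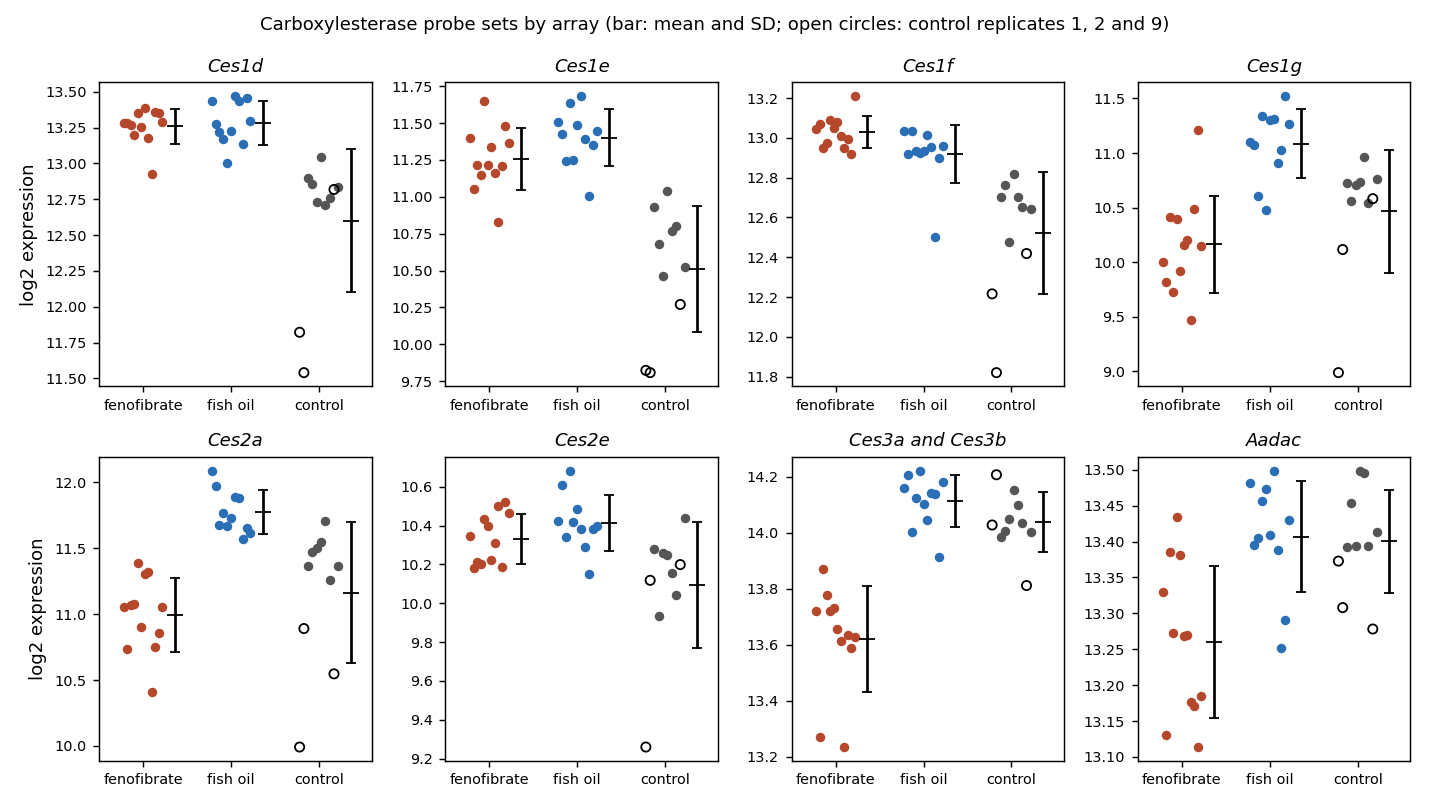
Log2 expression (y axis, a separate scale per panel) of the 7 carboxylesterase genes and of the probe set shared by Ces3a and Ces3b in each array of the fenofibrate (12), fish oil (11) and control (10) groups. Points are arrays, bars are the group mean and SD, and open circles are control replicates 1, 2 and 9; Ces1d, Ces1e and Ces1f are high on both diets, Ces1g and Ces2a on fish oil alone, and the shared probe set and Aadac are low on fenofibrate.

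Ces1d, Ces1e and Ces1f, adjacent on chromosome 8, were higher than control on both diets. Ces1d is the triacylglycerol hydrolase that mobilises stored fat for VLDL. Its brightest probe set had a lowest, median and highest value of 12.93, 13.28 and 13.39 in fenofibrate livers. The fish oil livers had 13.00, 13.28 and 13.47, and the control livers 11.54, 12.79 and 13.05. In 11 of 12 fenofibrate and 10 of 11 fish oil arrays it stood above every control array, so the ranges overlapped by a single array on each diet. Ces1d was 1.58-fold higher on fenofibrate (log2 difference 0.66 ± 0.12 SE, limma adjusted p = 5.62e-05) and 1.60-fold higher on fish oil (0.68 ± 0.13 SE, adjusted p = 2.00e-04). The other Ces1d probe sets gave the same direction, though they too may bind transcripts of close relatives. The next brightest was higher by 0.63 ± 0.12 on fenofibrate and 0.61 ± 0.13 on fish oil, and the dimmest by 0.66 ± 0.15 and 0.79 ± 0.15 (SE, limma adjusted p over all probe sets between 1.10e-04 and 8.77e-04). In these bulk liver samples, fewer cells of a type and less RNA per cell cannot be told apart.

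Ces1e, the esterase egasyn that holds beta-glucuronidase in the endoplasmic reticulum, had the largest rise among the 7 on each diet. Its lowest, median and highest values were 10.83, 11.21 and 11.65 in fenofibrate livers and 11.00, 11.42 and 11.68 in fish oil livers. Control livers had 9.81, 10.60 and 11.04. As for Ces1d, 11 of 12 fenofibrate and 10 of 11 fish oil arrays were above all controls. The difference was 0.74 ± 0.12 on fenofibrate (1.67-fold, limma adjusted p = 6.69e-06) and 0.89 ± 0.12 on fish oil (1.85-fold, adjusted p = 2.64e-06; SE).

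Ces1f, another triacylglycerol hydrolase of the hepatocyte, had a lowest, median and highest value of 12.92, 13.03 and 13.21 in fenofibrate livers. Fish oil livers had 12.50, 12.94 and 13.04, and control livers 11.82, 12.65 and 12.82. It was the member whose fenofibrate and control ranges did not overlap; over all 9005 genes 5.41% had ranges apart in that comparison. No member had ranges apart between fish oil and control, where 1.05% of all genes did. On fish oil 1 array, replicate 9, fell inside the control range, and it was also the lowest of its group for Ces1e, Ces2a, Ces2e and Aadac. Ces1f rose by 0.51 ± 0.08 on fenofibrate (1.42-fold, limma adjusted p = 7.09e-06) and by 0.40 ± 0.08 on fish oil (1.32-fold, adjusted p = 9.92e-04; SE). Its probe set ends in _s_at, the maker's mark for probes that may match several transcripts.

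Without control replicates 1, 2 and 9 the 3 genes remained higher, by smaller amounts. On fenofibrate the log2 differences were then 0.43 ± 0.06 for Ces1d, 0.51 ± 0.09 for Ces1e and 0.35 ± 0.06 for Ces1f (limma adjusted p of 3.36e-06, 6.25e-05 and 1.20e-05). On fish oil they were 0.45 ± 0.07, 0.66 ± 0.10 and 0.24 ± 0.06 (adjusted p of 8.92e-06, 8.92e-06 and 0.00419). The 7 remaining controls averaged 12.83 ± 0.12 for Ces1d, 10.74 ± 0.21 for Ces1e and 12.68 ± 0.11 for Ces1f (SD, n = 7). Replicates 1 and 2 were low for all 3 genes, so the smaller spread and errors follow in part from leaving them out.

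Ces1g, which lies next to Ces1f and whose loss in mice gives fatty liver, was called higher than control on fish oil but not on fenofibrate. Fenofibrate livers had a lowest, median and highest value of 9.47, 10.15 and 11.21, and fish oil livers 10.48, 11.10 and 11.52. Control livers had 8.99, 10.64 and 10.96. Fenofibrate replicate 11, at 11.21, stood above all controls while the other fenofibrate arrays reached no higher than 10.49. On fish oil 8 of 11 arrays were above all controls, and the gene was 1.54-fold higher (0.62 ± 0.19 SE, limma adjusted p = 0.0237). The fenofibrate difference was -0.30 ± 0.18 (SE, adjusted p = 0.196) with a 95% interval of -0.68 to 0.07. Both statements turn on the controls. Without control replicate 1, which sat at 8.99, Ces1g was lower on fenofibrate by 0.47 ± 0.15 (adjusted p = 0.0124), and without replicates 1, 2 and 9 by 0.55 ± 0.16 (adjusted p = 0.00646). Without those 3 the fish oil difference was 0.37 ± 0.16 and missed the threshold (adjusted p = 0.12); with consecutive array labels as a random block it was 0.62 ± 0.21 (adjusted p = 0.0622).

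Ces2a, a carboxylesterase of liver and intestine related to human CES2, had the same calls as Ces1g. Its lowest, median and highest values were 10.41, 11.06 and 11.38 in fenofibrate livers and 11.57, 11.73 and 12.09 in fish oil livers. Control livers had 9.99, 11.36 and 11.71. On fish oil Ces2a rose by 0.61 ± 0.15 (1.53-fold, limma adjusted p = 0.00419; SE), with 6 of 11 arrays above every control, and without control replicates 1, 2 and 9 it was higher by 0.32 ± 0.10 (adjusted p = 0.0328). On fenofibrate the difference was -0.17 ± 0.15 (SE, adjusted p = 0.369; 95% interval -0.47 to 0.12). It was lower by 0.30 ± 0.12 without control replicate 1 (adjusted p = 0.0393) and by 0.47 ± 0.10 without the 3 controls (adjusted p = 4.10e-04), whose own values were the lowest of the group.

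Ces2e, a relative in the same run, had small differences. Fenofibrate livers had 10.18, 10.33 and 10.52 as lowest, median and highest value, fish oil livers 10.15, 10.40 and 10.68, and control livers 9.26, 10.18 and 10.44. The groups overlapped, with 3 fenofibrate and 3 fish oil arrays above all controls. On fish oil Ces2e rose 1.25-fold (0.32 ± 0.09 SE, limma adjusted p = 0.0147) and kept its call without control replicates 1, 2 and 9 (0.22 ± 0.07, adjusted p = 0.0311). On fenofibrate it rose 1.18-fold (0.24 ± 0.09 SE, adjusted p = 0.0321), but the call rested on single arrays. Without control replicate 1 the difference was 0.14 ± 0.06 (adjusted p = 0.0646), and without control replicate 4 or fenofibrate replicate 9, 11 or 12 the adjusted p was between 0.05 and 0.0581. Without the 3 controls the difference was 0.14 ± 0.07 (adjusted p = 0.116).

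The probe set shared by Ces3a and Ces3b, closely related liver esterases, fell on fenofibrate and was not called on fish oil. Its lowest, median and highest values were 13.23, 13.64 and 13.87 in fenofibrate livers. Fish oil livers had 13.91, 14.14 and 14.22, and control livers 13.81, 14.03 and 14.21. In 11 of 12 fenofibrate arrays it was below every control array. It was 1.34-fold lower on fenofibrate (-0.42 ± 0.06 SE, limma adjusted p over all probe sets = 1.93e-06; 36.6% of all probe sets were called), and -0.43 ± 0.07 without control replicates 1, 2 and 9. On fish oil the difference was 0.08 ± 0.06 (SE, adjusted p = 0.500; 95% interval -0.05 to 0.20; 11.6% of all probe sets called), and 0.07 without the 3 controls (adjusted p = 0.583). Which of the 2 genes carried the change cannot be read from this probe set.

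Aadac, whose product hydrolyses arylacetamide drugs and lipid esters in the endoplasmic reticulum, varied little within each diet. Fenofibrate livers had a lowest, median and highest value of 13.11, 13.27 and 13.43, fish oil livers 13.25, 13.41 and 13.50, and control livers 13.28, 13.39 and 13.50. It fell on fenofibrate by 0.14 on the log2 scale (1.10-fold lower, ± 0.04 SE, limma adjusted p = 0.0076), with 8 of 12 arrays below every control, and by 0.17 without control replicates 1, 2 and 9 (adjusted p = 0.00265). On fish oil the difference was 0.01 ± 0.04 (SE, adjusted p = 0.945; 95% interval -0.08 to 0.09), and -0.03 without the 3 controls (adjusted p = 0.749).

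Counted over the 7 genes with a probe set of their own, 4 rose on fenofibrate (Ces1d, Ces1e, Ces1f and Ces2e), 1 fell (Aadac) and 2 did not pass the test. In the same comparison 40.8% of all genes tested were called, 22% higher and 18.9% lower. On fish oil 6 rose and none of the 7 fell, and the exception, Aadac, had an adjusted p of 0.945. Of all genes tested 14.5% were called at that adjusted threshold, 7.53% higher and 7% lower. At an unadjusted p under 0.05 the same 6 members passed, as did 2416 of the 9005 genes. The median difference of the 7 was 0.24 on fenofibrate and 0.61 on fish oil, against medians over all genes of -0.0016 and 0.01. The comparisons share the 10 control arrays, and a low control array raises both. Without control replicates 1, 2 and 9, 3 members rose and 3 fell on fenofibrate, where 22.1% of all genes were called higher and 19.8% lower. On fish oil 5 then rose, where 7.92% of all genes were called higher.

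**Figure D2:**
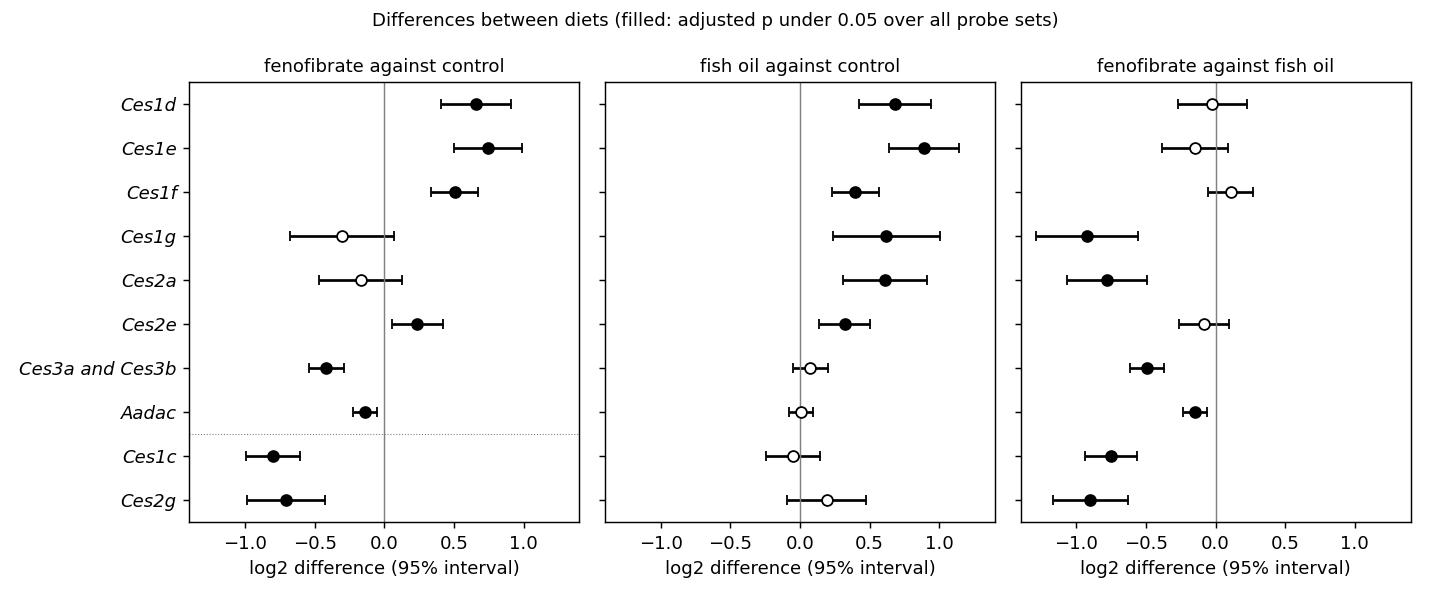
Log2 difference (x axis) with its 95% interval for each carboxylesterase in fenofibrate against control, fish oil against control and fenofibrate against fish oil. Filled points passed an adjusted p of 0.05 over all probe sets; relatives outside the 10 members stand at the bottom, and the largest gaps in the right panel are those of Ces1g, Ces2g and Ces2a.

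Differences between fenofibrate and fish oil use no control array, but their errors do, since 1 model estimated the spread from all 3 groups. Of the 7, limma called 3 lower on fenofibrate and none higher, where 38.9% of all genes were called, 19.8% higher and 19.1% lower. At an unadjusted p under 0.05 the same 3 passed, as did 4208 of the 9005 genes. Ces1g was 1.90-fold lower on fenofibrate than on fish oil (-0.92 ± 0.18 SE, limma adjusted p = 1.10e-04), with 10 of 12 fenofibrate arrays below every fish oil array. Ces2a was 1.72-fold lower (-0.78 ± 0.14 SE, adjusted p = 4.08e-05; ± 0.09 and 1.89e-08 with 7 controls in the model), and its ranges did not overlap, a state that 6.34% of all genes shared. Aadac was 1.11-fold lower (-0.15 ± 0.04 SE, adjusted p = 0.00455). The shared probe set of Ces3a and Ces3b was 1.41-fold lower with ranges apart (-0.49 ± 0.06 SE, adjusted p over all probe sets = 5.86e-08; 34.5% of all probe sets called).

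The 4 other members were not told apart between the diets by this test. The difference was -0.02 for Ces1d (95% interval -0.27 to 0.22, limma adjusted p = 0.8995), -0.15 for Ces1e (-0.39 to 0.09, adjusted p = 0.338), 0.11 for Ces1f (-0.06 to 0.27, adjusted p = 0.301) and -0.08 for Ces2e (-0.26 to 0.09, adjusted p = 0.475). These intervals leave room for differences of up to 0.39 on the log2 scale for Ces1e, and none reaches the size seen for Ces2a. No member's call in this comparison changed under any of the 45 alternatives computed for it. Those that only leave out control arrays cannot move these differences, only their errors.

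**Figure D3:**
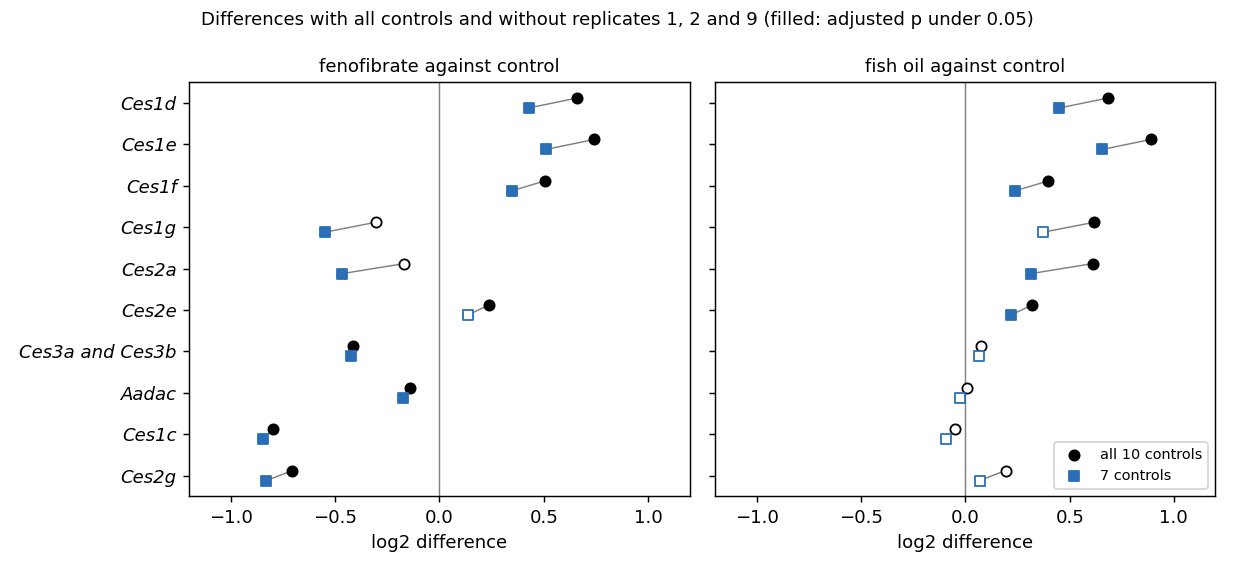
Log2 differences (x axis) of the carboxylesterases on fenofibrate (left) and fish oil (right) against all 10 controls (circles) and against the 7 controls left without replicates 1, 2 and 9 (squares). Filled symbols passed an adjusted p of 0.05; Ces1g and Ces2a become filled on the negative side in the fenofibrate panel, and Ces2e on fenofibrate and Ces1g on fish oil become open.

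Relatives outside the 10 genes help to place the members. Of 10 other carboxylesterase genes, Ces1c and Ces2g passed the filter. Ces1h, Ces2b, Ces2f, Ces4a and Ces5a were below it, Ces3b was read only by the shared probe set, and no probe set is named for Ces1a or Ces2h in the annotation used here. Ces1c, the secreted esterase of mouse plasma, lies beside Ces1d but did not move with it. Its lowest, median and highest values were 12.04, 12.81 and 12.97 in fenofibrate livers, 13.11, 13.44 and 13.50 in fish oil livers, and 13.12, 13.45 and 13.58 in control livers. All 12 fenofibrate arrays were below every array of the other groups, and Ces1c was 1.74-fold lower than control (-0.80 ± 0.09 SE, limma adjusted p = 2.29e-08) and 1.68-fold lower than on fish oil (-0.75 ± 0.09 SE, adjusted p = 4.97e-08). Its fish oil difference was -0.05 ± 0.10 (SE, adjusted p = 0.799; 95% interval -0.24 to 0.15). Without control replicates 1, 2 and 9 the Ces1c difference was -0.85 on fenofibrate (adjusted p = 1.06e-07) and -0.09 on fish oil (adjusted p = 0.608).

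Ces2g, of the second run, averaged 7.61 ± 0.29 in fenofibrate livers, 8.51 ± 0.27 in fish oil livers and 8.32 ± 0.42 in control livers (SD, n = 12, 11 and 10). It was 1.63-fold lower on fenofibrate than in control (-0.71 ± 0.14 SE, limma adjusted p = 8.92e-05) and 1.86-fold lower than on fish oil (-0.90 ± 0.13 SE, adjusted p = 1.73e-06), while fish oil and control differed by 0.19 ± 0.14 (SE, adjusted p = 0.397). Without the 3 controls the Ces2g difference from control was -0.83 on fenofibrate (adjusted p = 2.29e-06) and 0.07 on fish oil (adjusted p = 0.771). On fenofibrate, then, the first run read Ces1c lower, Ces1d, Ces1e and Ces1f higher and Ces1g not called with 10 controls. In the second run, also with 10 controls, it read Ces2a not called, Ces2e higher and Ces2g and the shared Ces3a and Ces3b probe set lower. Without the 3 controls Ces1g and Ces2a were called lower on fenofibrate and Ces2e was not called. On fish oil none of the 7 members, Ces1c, Ces2g or the shared probe set was called lower than control.

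**Figure D4:**
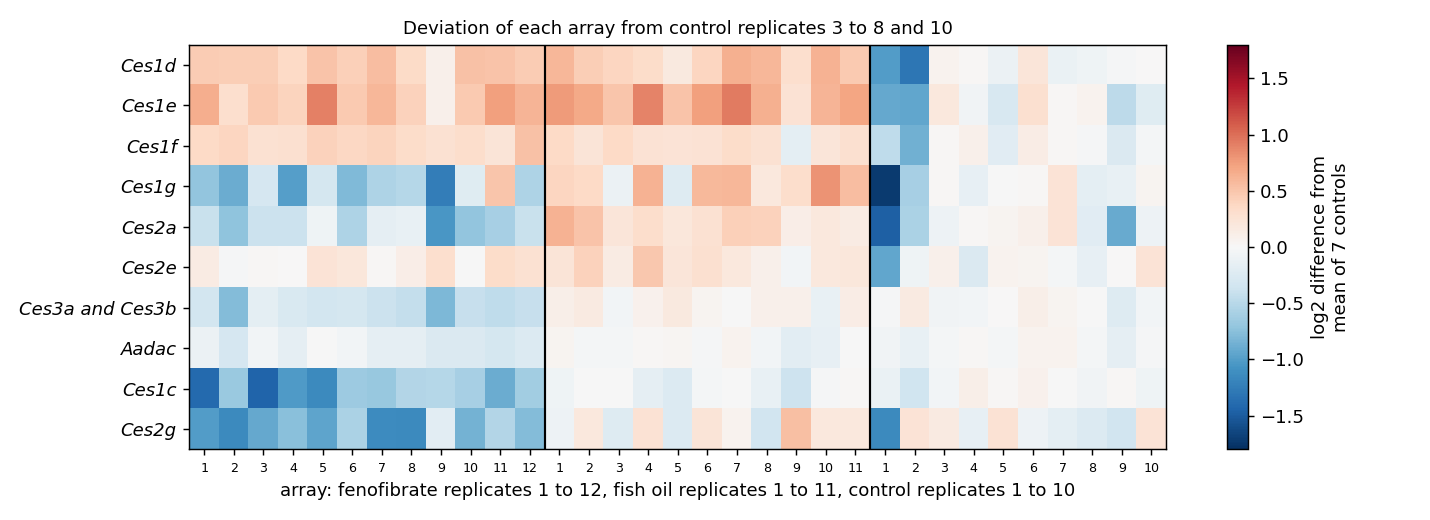
Difference of every array (columns, grouped by diet and numbered by replicate) from the mean of control replicates 3 to 8 and 10, in log2 units (colour), for each carboxylesterase (rows). Ces1d, Ces1e and Ces1f are warm in nearly every treated array, Ces1c, Ces2g and the shared Ces3a and Ces3b probe set are cool on fenofibrate, and control replicates 1 and 2 are cool across most of the upper rows.

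Some of the members also varied together from mouse to mouse within a diet. With each diet's mean subtracted, the Pearson correlation over the 33 arrays was 0.800 for Ces1d with Ces1e, 0.809 for Ces1d with Ces1f and 0.799 for Ces1e with Ces1f. Across the runs, Ces1e correlated with Ces2a at 0.737. Without control replicates 1, 2 and 9 (30 arrays) these were 0.716, 0.611, 0.673 and 0.637. Other pairs did not share this: Ces1f with Ces1g was 0.330, and 0.085 without the 3 controls, and Ces1g with Aadac was 0.039 and -0.031. Ces2e correlated with the other members at 0.123 to 0.608 over the 33 arrays, and at 0.111 to 0.38 without the 3 controls. The arrays share their normalization, and relatives may share probes, so these values are descriptions only.

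Over the same 33 arrays, the genes that varied most like each member were Gstt2 (0.882) and Inmt (0.860) for Ces1d, Cnmd (0.874) and Cisd1 (0.851) for Ces1e, and H2az2 (0.894) and Kat2b (0.865) for Ces1f. For Ces1g they were Akr1c20 (0.835) and Zfyve21 (0.808), and for Ces2a Abcg8 (0.853) and Klkb1 (0.841). Ces2e was matched less closely, by Mfsd4b1 (0.748) and Mipep (0.744), as was Aadac, by Cyp4f13 (0.736) and Glo1 (0.734). Without the 3 controls the correlations ran from 0.563 for Ces2e with Mipep to 0.815 for Ces1d with Inmt. For Aadac with Glo1 it was 0.745, close to its value over all arrays.

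Other ester and lipid hydrolases were listed for comparison, and 18 of 22 passed the filter. On fenofibrate 11 rose and 3 fell (median 0.36), and on fish oil 3 rose and 2 fell (median 0.04). Of all genes tested, 22% were called higher and 18.9% lower on fenofibrate, and 7.53% and 7% on fish oil. For fenofibrate against fish oil these shares were 19.8% and 19.1%. The listed hydrolases with the smallest adjusted p on fenofibrate were Lpl, Abhd6 and Mgll (limma adjusted p from 2.18e-14 to 1.13e-10). Lpl, lipoprotein lipase, rose by 3.29 ± 0.21 (SE). Abhd6, a monoacylglycerol lipase, rose by 1.73 ± 0.14 and Mgll, the main monoacylglycerol lipase, by 0.88 ± 0.08 (SE). On fish oil Abhd6 rose by 1.00 ± 0.14, whereas Lipa, lysosomal acid lipase, fell by 0.42 (± 0.06) and Lipg, endothelial lipase, fell by 1.41 (± 0.34; SE, adjusted p from 2.37e-06 to 0.00386). Fenofibrate against fish oil had 11 of the 18 higher and 2 lower. The smallest adjusted p were those of Lipa (0.82 ± 0.05 SE), Mgll (0.99 ± 0.08 SE) and Lpl (2.52 ± 0.20 SE), the reverse of the direction of Ces1g, Ces2a and Aadac. Lipg was higher too, by 1.58 (limma adjusted p = 1.98e-04).

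Of 10 genes of VLDL assembly, which Ces1d supplies with lipid, 9 passed the filter. On fenofibrate 3 of them rose and 5 fell, against 22% and 18.9% of all genes tested. Dgat1, which makes triacylglycerol, rose by 0.75 ± 0.09 and Mttp, the lipid transfer subunit, by 0.32 ± 0.06, while its partner P4hb fell by 0.26 (± 0.05; SE, limma adjusted p from 1.12e-08 to 2.72e-05). On fish oil 1 rose and 3 fell, against 7.53% and 7% of all genes tested. Cideb, which enlarges VLDL, fell by 0.19 (± 0.04) and Tm6sf2, which aids VLDL loading, by 0.63 (± 0.15), and Dgat1 rose by 0.27 (± 0.09; SE, adjusted p of 5.13e-04, 0.00333 and 0.0305). Leaving out any of control replicates 2, 4, 8 and 9, or of fish oil replicates 3 and 7, ended the Dgat1 call on fish oil (adjusted p of 0.0518 to 0.0636). It was also lost without control replicates 1, 2 and 9 together (0.21 ± 0.09, adjusted p = 0.146) and with consecutive array labels as a block (adjusted p = 0.0936). Fenofibrate against fish oil had 4 higher, among them Sar1b (0.31 ± 0.04 SE), Mttp (0.35 ± 0.06 SE) and Dgat1 (0.48 ± 0.08 SE), and 4 lower. Of all genes tested, 19.8% were called higher in that comparison and 19.1% lower.

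KDEL receptors, which read the return signal that most members end in, were lower on fenofibrate. Kdelr2 fell by 0.37 (± 0.06) and Kdelr1 by 0.19 (± 0.04; SE, limma adjusted p of 2.15e-05 and 0.00105), and the third, Kdelr3, was not among the genes tested. On fish oil Kdelr1 fell by 0.14 (± 0.05 SE, adjusted p = 0.0305), a call that ended on leaving out any of control replicates 8 and 10 or fish oil replicates 1, 4 and 8 (adjusted p of 0.053 to 0.0579) or with array labels as a block (0.0793), and Kdelr2 had a difference of -0.17 (adjusted p = 0.0797). Kdelr2 was lower on fenofibrate than on fish oil (-0.20 ± 0.06 SE, adjusted p = 0.0116).

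All 9 listed nuclear receptors and sensors that bear on drug and lipid metabolism passed the filter. On fenofibrate 3 rose and 4 fell, against 22% and 18.9% of all genes tested. The smallest adjusted p were those of the hepatocyte factor Hnf4a (-0.42 ± 0.06 SE), the shared partner Rxra (-0.36 ± 0.07 SE) and the bile acid receptor Nr1h4 (-0.35 ± 0.07 SE, limma adjusted p from 3.90e-07 to 1.55e-04). Ppara, the receptor that fenofibric acid activates, had a difference of 0.01 (adjusted p = 0.928). On fish oil 1 rose, Nr1i3, the receptor CAR that drives drug metabolism genes (0.67 ± 0.16 SE, limma adjusted p = 0.00372). Of all genes tested, 7.53% were called higher on fish oil and 7% lower. Nr1i3 was among the 3 that rose on fenofibrate too (0.52 ± 0.16 SE, adjusted p = 0.00907), and the diets differed by -0.16 (adjusted p = 0.437). Without control replicates 1, 2 and 9 its fish oil difference was 0.41 ± 0.13 (adjusted p = 0.0227), and its fenofibrate difference of 0.25 ± 0.12 was no longer called (adjusted p = 0.102). Fenofibrate against fish oil had 1 higher, the oxidative stress factor Nfe2l2 (0.36 ± 0.07 SE), and 4 lower, among them Hnf4a (-0.47 ± 0.06) and Rxra (-0.31 ± 0.06). Of all genes tested, 19.8% were called higher in that comparison and 19.1% lower. The Nfe2l2 call was lost when all its probe sets were averaged (0.01 ± 0.09, adjusted p = 0.913).

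Hepatocyte markers were bright on every array, as a liver label requires. Alb averaged 14.93, 14.94 and 14.95 in fenofibrate, fish oil and control livers, and all 7 listed markers passed the filter, with summed linear signals of 125206 to 137280 in fenofibrate livers, 130818 to 140425 in fish oil livers and 135988 to 147355 in control livers. On fish oil 3 of the 7 were called lower than control, and on fenofibrate 5. Of all genes tested, 7% and 18.9% were called lower in these comparisons. Aadac and the shared Ces3a and Ces3b probe set were lower on fenofibrate too, while 4 members were higher. Of the 5 adipocyte markers 3 had a probe set and 1 passed the filter, Fabp4; the sum ran from 491 to 4988 in fenofibrate livers, 294 to 506 in fish oil livers and 271 to 841 in control livers. The 7 Kupffer cell markers summed to 4079 to 8279 in fenofibrate livers, 5285 to 9415 in fish oil livers and 5881 to 9408 in control livers, with 2 of the 7 lower on fenofibrate and none called on fish oil. Stellate cell markers had 1 of 4 higher and 2 lower on fenofibrate and none called on fish oil, and endothelial markers 1 of 5 higher and 2 lower on fenofibrate and 2 lower on fish oil. The measured acinar marker, Cela1, fell by 1.13 and the blood marker Alas2 by 1.04 on fenofibrate, and neither was called on fish oil. Of 2 lymphocyte markers Ighm rose on fenofibrate (0.67 ± 0.25 SE, limma adjusted p = 0.0334). The other, Ptprc, was not called there and averaged 7.54 in fenofibrate livers and 7.76 in control livers. The cholangiocyte marker Sox9 was called on neither diet. The part of these cell types in the members' differences was not tested.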

How the data were processed

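Total liver RNA of 33 mice was read on 1 array each. The authors deposited log2 values, 1 per probe set and array; the submitters' processing notes name GCRMA 2.24.1. This method corrects background and normalizes between arrays, so array medians were nearly equal (2.90 to 2.97); arrays have no sequencing depth, and their number limits the precision. Very bright probe sets, up to 15.6, may understate differences.

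Probe sets were named from the platform annotation, with symbols updated through gene identifiers. A probe set was kept where 10 or more arrays reached log2 4. Of the 17162 kept, 15203 carry 1 gene, and the brightest per gene was kept, giving 9005 genes. One model over the 3 groups was fitted with limma 3.58.1 (statmod 1.5.0, R 4.3.3), two-sided, with Benjamini-Hochberg adjustment over all genes; a gene was called at an adjusted p under 0.05. The shared Ces3a and Ces3b probe set and single Ces1d probe sets come from a fit over all 17162 probe sets. All fitted differences carry a standard error (SE).

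The members and gene lists, and the choice to leave out control replicates 1, 2 and 9 together, were made with earlier results of these data known. Named genes are all members, all measured relatives, the 3 called genes of each other list with the smallest adjusted p per comparison, and the 2 genes most correlated with each member; Ppara, Nr1i3 on fenofibrate, and cell markers were named in addition. Whether arrays with the same replicate number deviate together was checked (31 correlations between diets, -0.21 to 0.35, median 0.05), and the numbers were not treated as pairs. Arrays with consecutive label numbers and the same diet correlated more (median 0.14) than other arrays of a diet (-0.13), and such label pairs were tried as a random block (correlation 0.23).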

Additional observations from a re-analysis of the deposited data

Results flagged for a closer look

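In the control group of 10 arrays, 4 of the 12 carboxylesterase probe sets tested had a lowest array that stood far from the rest by Dixon's test at the 95% level, which chance gives in about 1 of 20 groups. Control replicate 1 was lowest for Ces1g at 8.987, for Ces2e at 9.2597 and for Ces2g at 7.2972. Control replicate 2 was lowest for Ces1c at 13.1191. Ces1d, for which replicates 1 and 2 were both low, was not marked, since the test measures the gap to the nearest array. The fenofibrate and fish oil groups hold more than 10 arrays and were not tested this way. The cause was not tested.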

How the results depend on the processing

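Each carboxylesterase difference was recomputed under up to 45 alternatives. Of 1344 such values 1325 kept their side of the threshold, 13 lost a call and 6 gained one. Leaving out control arrays could change only the errors of the differences between fenofibrate and fish oil. No called value turned direction; 7 values that were never called changed sign, at sizes of at most 0.0277 (6 for Aadac on fish oil, 1 for Ces1d between the diets). Members called ran between 4 and 6 on fenofibrate (also over single arrays left out), 5 and 6 on fish oil (6 with any single array left out) and stayed at 3 between the diets. Of all 9005 genes, the main fit called 40.8%, 14.5% and 38.9% in these comparisons. With array labels as a block the shares were 34.6%, 9.38% and 32.9%. With array weights 4142 genes were called on fenofibrate and 3971 between the diets. Ces2e on fenofibrate was also lost without the filter (adjusted p = 0.0507), with only the 2 groups (0.06), with array weights (0.0688) and with array labels as a block (0.067). With array weights Ces1g and Ces2a were called lower on fenofibrate (-0.53 and -0.38). With replicate number as a block (replicate block), 4, 6 and 3 members were called (39.7%, 14.6% and 38.5% of all genes); for 2 arrays the source name carries another replicate number than the title used. This lost Ces2e on fenofibrate (0.22, adjusted p = 0.0866) and no other member's call; the Kdelr1 call on fish oil was lost too (adjusted p = 0.0744). Nfe2l2 on fenofibrate (0.20) was -0.0393845 with its probe sets averaged. Over all genes, fish oil called 1308, against 845 with array labels as a block and 1956 with array weights. The cause was not tested.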
